A study of Mus musculus with 8 samples.

Results

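The 10 genes described here, Fos, Jun, Junb, Jund, Egr1, Ier2, Nr4a1, Btg2, Atf3 and Dusp1, were taken by name from a table of 55414 genes as immediate early genes. RNA from whole mouse testis was compared between 4 samples labelled control and 4 samples labelled valine, a branched-chain amino acid. Levels are FPKM, in which fragments are divided by gene length and by a library total. The labels give no strain, age, dose, route or duration of treatment. Nor do they say that the samples are from different animals, and the p-values therefore reflect the variation among these 8 samples, part of which may be technical. Differences were tested with limma on log2(FPKM + 1) for the 22077 genes whose mean reached 1 FPKM. On that scale the change of a gene with low FPKM is understated. Of the 10 genes, 8 entered the test, and Fos and Atf3 lay below the limit.

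Immediate early genes are transcribed within minutes of a signal, from factors already present in the cell and without new protein synthesis. Serum response factor, CREB and MEF2 carry the signal to their promoters, and several of the products shut the response down again. In the Leydig cell, the steroid-producing cell between the testis tubules, luteinizing hormone raises cyclic AMP, which induces Nr4a1, also known as Nur77. Nr4a1 is an orphan nuclear receptor that binds the NBRE element and is known to activate promoters of steroidogenic genes. Fos, Jun, Junb and Jund are subunits of the AP-1 transcription factor, Atf3 is a stress-induced partner of theirs, and Egr1 is a zinc finger factor. Ier2 is a nuclear early response protein, Btg2 is an antiproliferative protein that acts on transcription and mRNA deadenylation, and Dusp1 is a phosphatase that inactivates MAP kinases.

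The CRE, the element through which CREB is known to answer cyclic AMP, has the core TGACG, and 4 promoters are shown because they held the most copies of these letters. Promoter windows of 300 bases (250 before the start and 50 after it) came from RefSeq on build GRCm38.p6. This is an older build than that of the authors' alignment. Of the 10 genes, 8 matched an entry, while Ier2 and Egr1 had none and were not scanned. The 250 bases before the start are printed 5′ to 3′ on the strand of the gene. Capitals mark TGACG or its reverse complement CGTCA.
Nr4a1, chr15:101266596-101266845, + strand: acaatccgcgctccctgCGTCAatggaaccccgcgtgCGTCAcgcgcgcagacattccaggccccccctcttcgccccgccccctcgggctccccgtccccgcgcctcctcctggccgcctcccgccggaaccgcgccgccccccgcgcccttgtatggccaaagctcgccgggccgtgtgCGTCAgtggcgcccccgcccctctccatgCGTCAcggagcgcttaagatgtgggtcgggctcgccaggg
Fos, chr12:85473640-85473889, + strand: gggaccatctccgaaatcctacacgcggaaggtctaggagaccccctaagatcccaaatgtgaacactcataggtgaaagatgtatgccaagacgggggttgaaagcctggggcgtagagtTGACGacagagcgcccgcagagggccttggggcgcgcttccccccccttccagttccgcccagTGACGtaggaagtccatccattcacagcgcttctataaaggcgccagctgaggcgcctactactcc
Dusp1, chr17:26508473-26508722, - strand: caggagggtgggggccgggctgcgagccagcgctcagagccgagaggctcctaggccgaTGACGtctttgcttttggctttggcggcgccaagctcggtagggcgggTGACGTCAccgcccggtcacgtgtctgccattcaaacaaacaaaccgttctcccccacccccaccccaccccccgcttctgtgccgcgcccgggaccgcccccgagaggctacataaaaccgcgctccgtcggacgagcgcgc
Btg2, chr1:134079156-134079405, - strand: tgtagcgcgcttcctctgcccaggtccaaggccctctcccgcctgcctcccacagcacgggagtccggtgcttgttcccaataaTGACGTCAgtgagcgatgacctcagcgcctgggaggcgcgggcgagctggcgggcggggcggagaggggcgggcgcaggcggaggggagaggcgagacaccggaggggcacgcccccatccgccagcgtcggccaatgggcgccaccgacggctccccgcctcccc
Counting the base before the start as -1, Nr4a1 held 4 copies of the core, all on the reverse strand, the nearest at -40 to -36. In Fos the copy at -66 to -62 lay upstream of a TATA box (TATAAA) at -33 to -28. Dusp1 and Btg2 each carried the full palindromic CRE, TGACGTCA, at -143 to -136 and at -166 to -159, and each palindrome counts as 2 overlapping copies of the core.

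On both strands, the core was found in 6 of the 8 windows (Fos, Junb, Nr4a1, Btg2, Atf3 and Dusp1), against 20.8% of 32851 RefSeq promoter windows of the same length. The full CRE stood in 2 of the 8, against 1.79%. The GC box GGGCGG was present in 6 of the 8, against 35.7%. None of the 8 windows held a CArG box, an AP-1 site (TGACTCA or TGAGTCA) or the NBRE AAAGGTCA, which occurred in 1.63%, 5.2% and 1.51% of all windows. The genes of steroid and Leydig hormone synthesis examined below had 6 windows for 5 of the 7 genes. Star and Cyp17a1 had no window and were not scanned. In the 6 windows the NBRE was not found, and the core was found only once, in Cyp11a1. These are matches of letters in a short window and not measured binding sites.

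**Figure D1:**
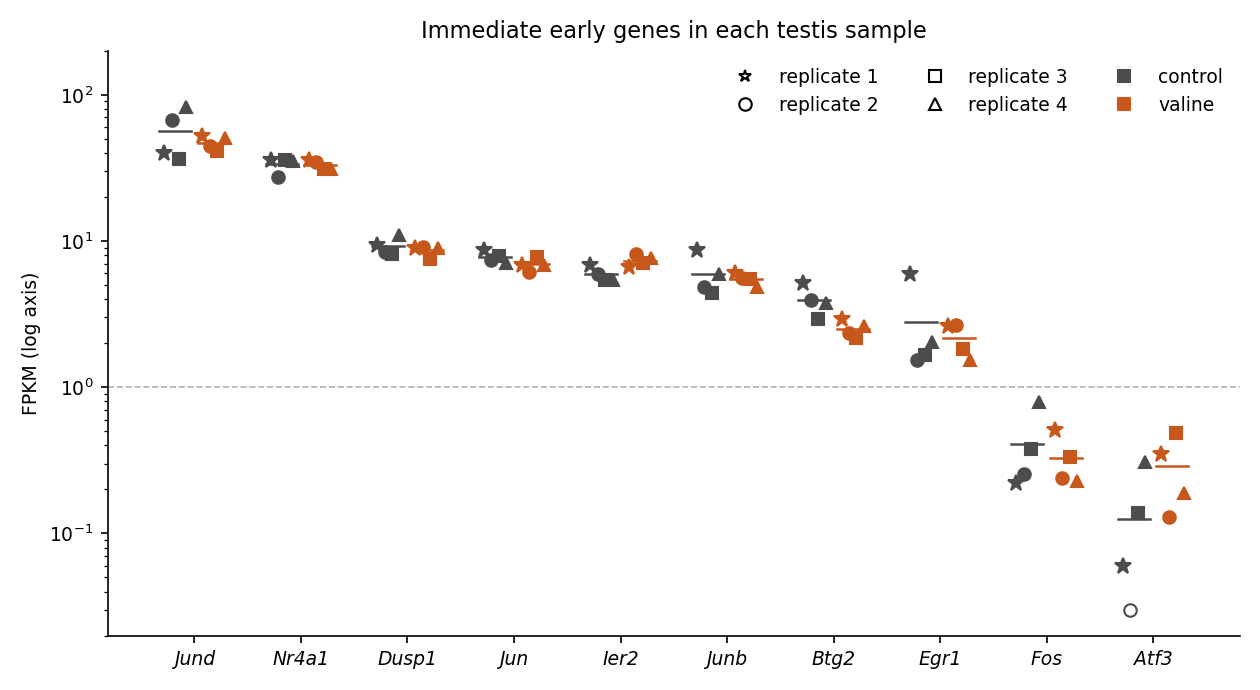
FPKM of the 10 immediate early genes on a log axis, 1 point per sample, with a short line at each group mean. The dashed line marks 1 FPKM, the limit for testing, and the open circle at the bottom marks Atf3 in control 2, which was listed at 0. Jund and Nr4a1 lie above the other genes in every sample, and Fos and Atf3 lie below the line.

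The early genes differed far more from each other than between the groups. FPKM corrects for length, so levels can be set side by side. Jund had the highest mean over the 8 samples at 51.7 FPKM, followed by Nr4a1 at 33.4, and their ranges did not overlap, although only narrowly (36.148 FPKM at the lowest for Jund, 36.018 at the highest for Nr4a1). Dusp1 (8.93 FPKM), Jun (7.34), Ier2 (6.64), Junb (5.74), Btg2 (3.23) and Egr1 (2.48) followed as a series in which each gene's range overlapped that of the next. Fos (0.370) and Atf3 (0.208) stood apart at the bottom. Fos, often used as the reporter of an early response, was represented by few fragments in every library, while Nr4a1 had at least 637 fragments in each.

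None of the 8 tested early genes changed between control and valine at an adjusted p of 0.05 (limma, Benjamini-Hochberg), where 8.73% of all tested genes did, 4.32% as higher and 4.41% as lower. At an unadjusted p below 0.05 there were 2 of the 8, Ier2 and Btg2, against 5651 of the 22077 tested genes. Limma voom on fragments recovered from the FPKM also called 0 at the adjusted threshold. The log2 difference of valine minus control was negative in 7 of the 8 genes, with a median of -0.11, against 10242 of 22077 and 0.02 over all tested genes. For 5 of them (Junb, Jund, Egr1, Nr4a1 and Dusp1) the sign turned when 1 sample was left out. The values of valine and control did not overlap in 1 of the 8, Btg2, against 18.4% of all tested genes.

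**Figure D2:**
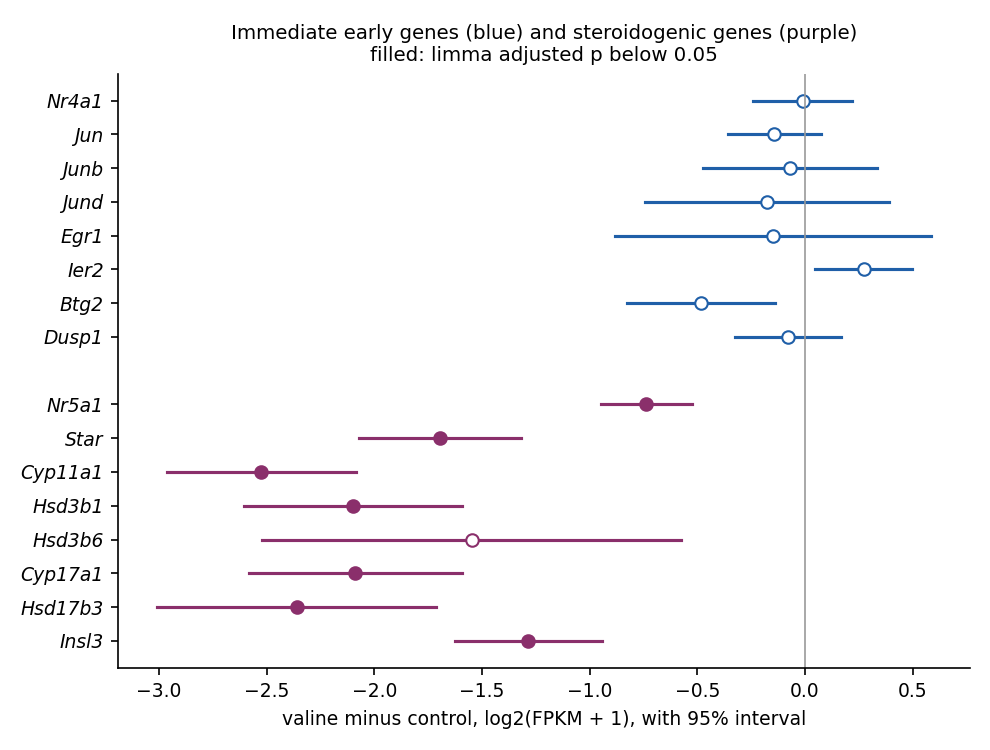
Difference of valine minus control in log2(FPKM + 1) for the 8 tested early genes (blue), and for Nr5a1 and 7 genes of steroid and Leydig hormone synthesis (purple), with the 95% confidence interval from limma. All 8 early genes have open points (not passed), and their intervals, except those of Ier2 and Btg2, include 0. Nr5a1 and the steroidogenic genes have filled points (passed) at negative values, except Hsd3b6, which is open.

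Nr4a1 showed no detectable change. In FPKM it measured 36.0, 27.2, 35.9 and 35.2 in the control samples and 35.7, 34.8, 30.9 and 31.3 in the valine samples. Control 2 lay below all others, and the other 3 controls lay close together, above 3 of the 4 valine samples and overlapping valine 1. The means were 33.6 ± 4.29 and 33.2 ± 2.43 FPKM (SD, n = 4 each). The log2 difference was -0.01 (SE 0.101, adjusted p = 0.961), with a 95% interval of -0.24 to 0.22, so a larger change in whole-testis Nr4a1 in either direction lay outside the interval. Its relatives were low: Nr4a2 had 0.545 ± 0.137 FPKM in control and 0.605 ± 0.104 in valine and was not tested, and Nr4a3 had 1.16 ± 0.231 and 1.17 ± 0.221 (adjusted p = 0.995).

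Genes of steroid and Leydig hormone synthesis, several of them known targets of Nr4a1, changed although Nr4a1 itself did not pass the test. Of 7 such genes, 6 fell and none rose. Star, which carries cholesterol into mitochondria, measured 73.2, 64.7, 82.7 and 47.0 FPKM in control and 18.7, 22.1, 17.1 and 20.7 in valine, with no overlap (log2 difference -1.69, SE 0.164, adjusted p = 0.0024). Cyp11a1, which makes pregnenolone, fell by 2.52 on the log2 scale, from 115.5 ± 29.7 to 19.0 ± 3.78 FPKM (SD, n = 4 each). Cyp17a1, the 17-hydroxylase and lyase of androgen synthesis, fell by 2.09, from 415.7 ± 108 to 95.4 ± 17.7 FPKM. Hsd17b3, which makes testosterone from androstenedione, fell by 2.36, and Hsd3b1, a 3-beta-hydroxysteroid dehydrogenase, fell by 2.10. Insl3, the peptide hormone of Leydig cells, fell by 1.28, from 1033 ± 103 to 429.8 ± 92.0 FPKM. Hsd3b6 had a log2 difference of -1.55 that did not pass (adjusted p = 0.0597). Hsd3b1 and Hsd3b6 are related genes, and the labels do not say how reads shared between them, if any, were divided.

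The difference between each of these genes and Nr4a1 was tested per sample, by a two-sided exact permutation test over the 70 arrangements of 4 against 4, for which 0.0286 is the smallest p. For 6 of the 7 genes the log2 level relative to Nr4a1 fell, by 1.68 for Star, 2.51 for Cyp11a1, 2.09 for Hsd3b1, 2.08 for Cyp17a1, 2.35 for Hsd17b3 and 1.27 for Insl3 (exact permutation, p = 0.0286 each, adjusted p = 0.0333). For Hsd3b6 the exact permutation p was 0.0857. The 6 genes did not overlap between the groups and Nr4a1 hardly differed, so the smallest p could be foreseen. The test repeats the falls given above and is not separate evidence about Nr4a1. Star was 0.95 ± 0.377 log2 units above Nr4a1 in control and -0.73 ± 0.153 relative to it in valine. Cyp17a1 was above Nr4a1 in both groups, by 3.56 ± 0.548 and 1.48 ± 0.214. Within the control group, control 2 had the lowest Nr4a1 (27.2 FPKM) and the highest Cyp11a1 (152.7), Hsd3b1 (186.3), Cyp17a1 (518.8), Hsd17b3 (124.9) and Insl3 (1188), whereas its Star (64.7) and Hsd3b6 (88.9) were below those of controls 1 and 3.

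Nr5a1, also known as SF-1, which binds a related element and controls much the same set of promoters, fell from 24.1 ± 2.66 to 13.99 ± 1.01 FPKM (log2 difference -0.74, SE 0.0926, adjusted p = 0.0047). It was the only gene of 14 tested regulators of steroid synthesis and Nr4a1 partners that passed, where 8.73% of all tested genes did. At an unadjusted p below 0.05 in limma there were 7 of the 14, against 5651 of the 22077 tested genes. The values did not overlap between the groups in 7 of the 14, against 18.4% of all tested genes. Leydig cell markers fell in 10 of 11 cases, and their summed level was 1780 to 2470 FPKM in control and 634 to 925 in valine. This list is not separate evidence, since 7 of the 10 are Nr5a1 and the 6 synthesis genes above; the other 3 were Lhcgr, Fdx1 and Scarb1. In whole tissue, fewer Leydig cells and less RNA per Leydig cell cannot be told apart. The level of Nr4a1 comes from all cell types of the testis, and which of them supply it was not tested.

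**Figure D3:**
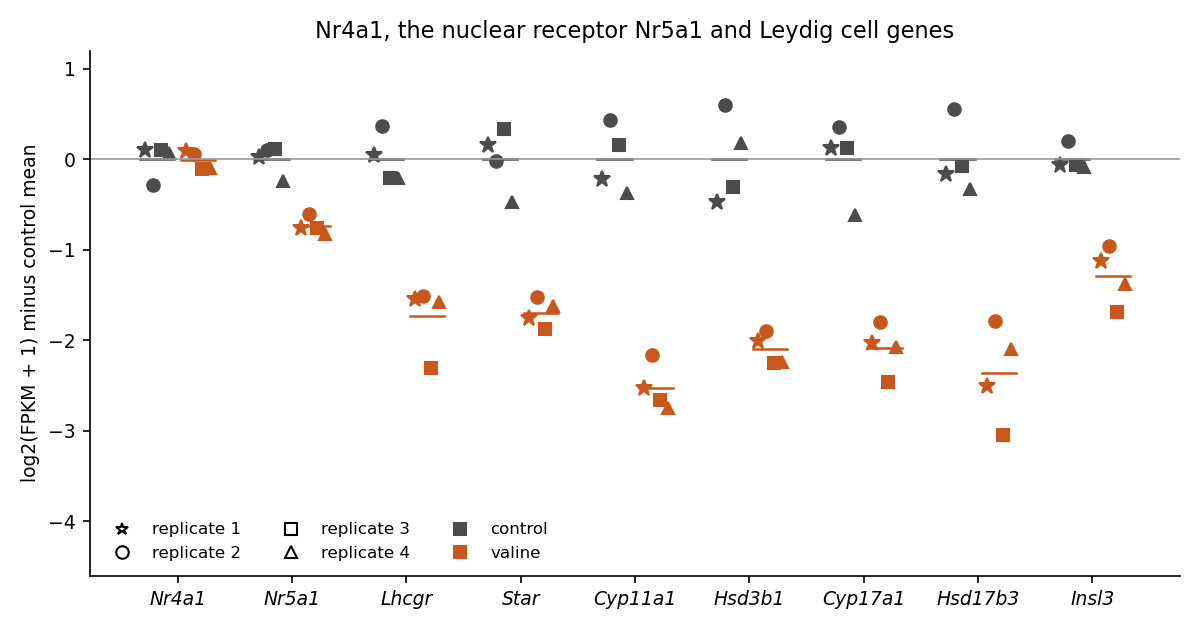
Log2(FPKM + 1) minus the control mean for Nr4a1, Nr5a1, Lhcgr and 6 genes of steroid and Leydig hormone synthesis, 1 point per sample, with a short line at each group mean. Nr4a1 points of both groups lie around 0, while the valine points of Lhcgr, Star, Cyp11a1, Hsd3b1, Cyp17a1, Hsd17b3, Insl3 and Nr5a1 lie below every control point of the same gene.

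For the signal route to Nr4a1, only transcript levels of its components in whole testis were available, and signalling activity was not measured. Of 17 tested genes of luteinizing hormone, cyclic AMP and calcium signalling, 3 fell and 1 rose. Over all tested genes, 4.41% fell and 4.32% rose. At an unadjusted p below 0.05 in limma there were 7 of the 17, against 5651 of the 22077 tested genes. Lhcgr, the luteinizing hormone receptor, measured 5.85, 7.54, 4.75 and 4.76 FPKM in control and 1.28, 1.34, 0.344 and 1.22 in valine (log2 difference -1.73, adjusted p = 0.0045). Adcy9, an adenylyl cyclase, fell from 3.72 ± 0.448 to 1.63 ± 0.124 FPKM (adjusted p = 0.0054), and Prkacb, a catalytic subunit of protein kinase A, from 4.25 ± 0.387 to 2.77 ± 0.403 (adjusted p = 0.0339). Prkaca, a catalytic subunit of the same kinase at a far higher level, did not pass. It had 119.9 ± 4.70 FPKM in control and 117.7 ± 8.64 in valine (limma adjusted p = 0.817). Prkar2a, a regulatory subunit of that kinase, rose from 92.3 ± 0.903 to 107.2 ± 7.15 FPKM (adjusted p = 0.0482). The Prkacb and Prkar2a calls were each lost in at least 6 of the 8 fits that left out a sample or, for Prkar2a, when totals were equalised (adjusted p = 0.274). Lhcgr is itself among the Leydig markers counted above.

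Of 30 tested factors that relay signals to early genes, 1 rose and 1 fell, where 4.32% of all tested genes rose and 4.41% fell. At an unadjusted p below 0.05 in limma there were 10 of the 30, against 5651 of the 22077 tested genes. Mef2d, a MEF2 factor that binds the Nr4a1 promoter in several cell types, measured 11.3, 11.01, 12.2 and 10.4 FPKM in control and 7.90, 8.68, 7.44 and 6.81 in valine (log2 difference -0.49, SE 0.0886, adjusted p = 0.0149). All 4 valine values lay below the lowest control value, and the call held in every alternative run. Crem, a cyclic AMP-responsive factor abundant in spermatids, rose from 83.5 ± 2.96 to 96.6 ± 3.36 FPKM (adjusted p = 0.0315), and was not called when totals were equalised (adjusted p = 0.191) or in 6 of the 8 fits that left out a sample. Crem stood beside spermatid markers, of which 8 of 12 rose, with sums of 42230 to 44479 FPKM in control and 53903 to 65701 in valine; the part of that shift in the result was not tested. Srf and Creb1 did not pass (adjusted p = 0.740 and 0.633).

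The 3 Jun genes did not pass in either direction. Jund, the constitutive member of the family, measured 40.1, 66.9, 36.1 and 82.2 FPKM in control and 51.9, 44.8, 41.1 and 50.8 in valine. Controls 2 and 4 exceeded every valine sample, and controls 1 and 3 lay below them all. The log2 difference was -0.18 (95% interval -0.74 to 0.39, adjusted p = 0.705) and became 0.03 without control 4. Jun ranged from 7.10 to 8.62 FPKM in control and from 6.10 to 7.83 in valine (log2 difference -0.14, adjusted p = 0.386). Junb, which is often antagonistic to Jun, measured 8.72, 4.88, 4.44 and 5.90 FPKM in control and 6.02, 5.60, 5.54 and 4.83 in valine (log2 difference -0.07, adjusted p = 0.846). Without control 1 the difference for Junb was 0.10.

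Jund supplied most Jun-family transcript, 78.8% ± 7.93 of the summed FPKM of the 3 genes in control and 79.0% ± 2.50 in valine (SD, n = 4 each, exact permutation p = 0.943). Its share ranged from 69.8% in control 1 to 86.3% in control 4. The shares of Jun, 12.01% and 11.7%, and of Junb, 9.18% and 9.27%, also did not differ detectably (exact permutation p = 0.886 and 0.971, and 0.971 for all 3 after adjustment).

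Fos and Atf3 rested on few fragments. Whole fragments could be recovered from the low FPKM values, since a gene's FPKM times its exon length was a whole multiple of a common unit in 98.7% to 98.8% of low values per sample, within 0.05 fragments. Fos had 4, 4, 6 and 14 fragments in the control libraries and 8, 4, 6 and 4 in the valine libraries, and control 4 was the highest. The exact 95% Poisson intervals of the lowest and highest values, 1.09 to 10.2 and 7.65 to 23.5, cover counting error only and overlap. Atf3 had 1, 0, 2 and 5 fragments in control and 5, 2, 8 and 3 in valine, and the 0 of control 2 allows up to 3.69. In FPKM, Fos was 0.412 ± 0.263 and 0.329 ± 0.131, and Atf3 0.127 ± 0.134 and 0.289 ± 0.162. With no filter the adjusted p was 0.824 for Fos and 0.475 for Atf3, and no difference was detectable at this depth.

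Among the genes that pair with these factors, 14 were tested. Ddit3, a stress-induced partner, rose from 45.2 ± 3.27 to 56.9 ± 5.26 FPKM (adjusted p = 0.0469), a call lost under most alternatives. Atf4, an activator of Ddit3 that responds to amino acid supply, was 36.7 ± 2.31 and 39.8 ± 2.96 FPKM (adjusted p = 0.363). Fosb, a Fos relative, was 1.33 ± 0.178 and 1.41 ± 0.273 (adjusted p = 0.869). Fosl2 was not tested because its mean was below 1 FPKM; its values were 1.47, 1.052, 1.24 and 1.18 in control and 0.778, 0.723, 0.570 and 0.448 in valine, which do not overlap.

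Egr1 was set apart by 1 library. It measured 5.96, 1.54, 1.65 and 2.05 FPKM in control and 2.62, 2.65, 1.82 and 1.54 in valine, from 46 to 205 fragments in control and 51 to 85 in valine. Control 1 was 3.41 times the mean of the other 3 controls, and those 3 overlapped the valine samples. The log2 difference was -0.15 (95% interval -0.88 to 0.59, adjusted p = 0.820), and without control 1 it was 0.19. Ier2 measured 6.84, 5.99, 5.44 and 5.42 FPKM in control and 6.62, 8.09, 7.07 and 7.64 in valine. Control 1 alone overlapped the valine range. Its log2 difference was 0.27 (SE 0.0982, 95% interval 0.05 to 0.50, unadjusted p = 0.0227, adjusted p = 0.125 from limma), a ratio of means of 1.24, and adjusted p over the alternatives lay between 0.102 and 0.390.

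The feedback genes Btg2 and Dusp1 also did not pass. Btg2 measured 5.18, 3.93, 2.92 and 3.79 FPKM in control and 2.91, 2.35, 2.16 and 2.62 in valine, and the groups were separated by the narrow gap between control 3 at 2.915 and valine 1 at 2.909. Its mean was 3.95 ± 0.932 in control and 2.51 ± 0.328 in valine, a ratio of 0.634. The log2 difference was -0.48 (SE 0.151, 95% interval -0.83 to -0.14, unadjusted p = 0.0117, adjusted p = 0.0858 from limma). Leaving out control 3 gave -0.59 with an adjusted p of 0.0495, and over all alternatives the adjusted p ran from 0.0495 to 0.177. None of 5 relatives of Btg2 passed in limma (1 at an unadjusted p below 0.05, against 5651 of the 22077 tested genes). Dusp1 measured 9.33, 8.37, 8.14 and 11.1 FPKM in control and 8.96, 9.09, 7.54 and 8.96 in valine (log2 difference -0.08, adjusted p = 0.692), and without control 4 the difference was close to 0, at 0.0028. None of 14 other tested dual-specificity phosphatases passed in limma (4 at an unadjusted p below 0.05, against the same 5651 of 22077). Of 17 tested feedback repressors of the early response, 2 fell and none rose, and 5 had an unadjusted limma p below 0.05. Over all tested genes, 4.41% fell and 4.32% rose. Trib2, a pseudokinase scaffold, fell from 1.63 ± 0.174 to 0.594 ± 0.162 FPKM (adjusted p = 0.0176). Spred1, an inhibitor of Ras signalling, fell from 3.89 ± 0.465 to 2.51 ± 0.393 (adjusted p = 0.0444). The Spred1 call was lost in each of the 8 fits that left out a sample and the Trib2 call in 3.

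Spread between samples of a group separated these genes further. Among the 8 tested early genes the pooled within-group SD of log2(FPKM + 1) was above the median of genes of like level (tested genes were divided by mean level into 10 classes) in 4. The SD of Jund was 3.74 times that median, larger than that of 95.6% of the genes in its class, the SD of Egr1 was 2.13 times, that of Junb 1.42 times and that of Nr4a1 1.24 times. Jun, Ier2, Btg2 and Dusp1 had 0.618, 0.644, 0.877 and 0.927 times. The control samples spread more than the valine samples in 7 of the 8, with Jun as the exception, where 51.1% of all tested genes had the larger SD in control. The coefficient of variation of Egr1 was 75.7% in control and 26.2% in valine, that of Jund 39.1% and 10.8%, that of Junb 32.1% and 8.997%, and that of Nr4a1 12.8% and 7.33%. In control, the coefficient was 10.1 times what counting error alone gives for Jund and 7.28 times for Egr1, but 0.905 times for Ier2 and 1.15 times for Jun.

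**Figure D4:**
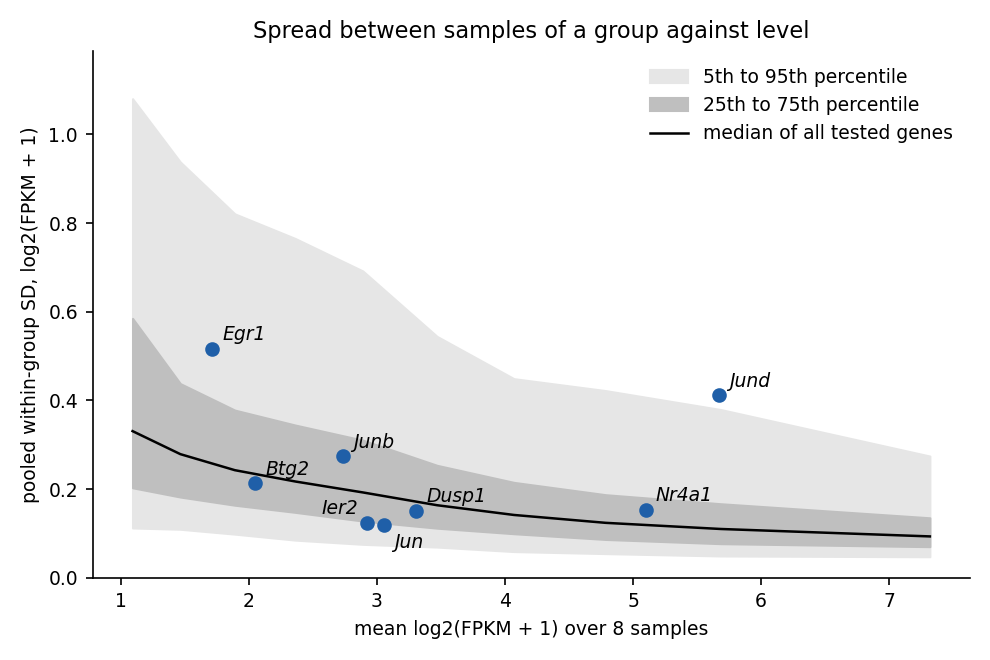
Pooled within-group SD of log2(FPKM + 1) against the mean over 8 samples for all tested genes and for the 8 tested early genes. The line is the median of all tested genes at that level, and the darker and lighter bands hold the middle and nearly the whole of their distribution, with percentiles given in the legend. Jund and Egr1 lie above the darker band, Jund also above the lighter one, and Jun, Ier2, Btg2 and Dusp1 lie below the line.

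For Egr1, Junb and Nr4a1 the excess spread rested on 1 library each, while for Jund it did not: whichever sample was left out, the SD of Jund was 2.92 to 4.23 times the median of its class. Control 1 was the highest of the 8 samples for 5 of the 10 early genes (Jun, Junb, Egr1, Nr4a1 and Btg2), and for 12.4% of all tested genes. For Nr4a1 the lead was slight, with 36.018 FPKM in control 1, 35.948 in control 3 and 35.735 in valine 1. Control 4 was the highest for Fos, Jund and Dusp1, and for 9.63% of all tested genes. Without control 1 the mean of the remaining controls was 1.75 ± 0.269 FPKM for Egr1, 5.07 ± 0.751 for Junb and 3.54 ± 0.549 for Btg2 (SD, n = 3 each), and the SD against its class became 0.809 times the median for Egr1 and 0.733 times for Junb. For Nr4a1 it was control 2 that stood apart, and without it the value was 0.663 times. Control 1 also differed in fat markers: 7 of them, without Adipoq, summed to 62.7 FPKM in control 1, 4.70 to 11.6 in the other controls and 2.98 to 4.13 in valine. Over the full list of 8 markers, which included Adipoq, the sums were 31.9 to 93.5 FPKM in control and 33.9 to 41.6 in valine, and 1 of 6 tested, Plin1, fell. Crisp1, an epididymis marker too low to be tested, was also highest in control 1, at 5.06 FPKM against 0 to 0.282 in the other 7 samples, and was named after its values were seen. The summed epididymis list of 7 markers was 12.97 to 22.4 FPKM in control, with 21.2 in control 1, and 18.4 to 24.4 in valine. Whether fat or epididymis tissue contributed to the early gene values of control 1 was not tested.

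Genes that followed Nr4a1 most closely were sought among 9357 named protein-coding genes averaging 5 FPKM or more, by Pearson r over the 8 samples after group means were subtracted. These were Lmntd2 (r = 0.966), Tmem8 (0.962), Ydjc (0.962), Spata2l (0.956) and Tmem209 (0.954). Each of the 5 had its lowest value in control 2, as Lmntd2 did, with 160.6 FPKM in control 2 and 187.1, 194.5 and 186.1 in the other controls. These correlations over 8 samples describe the libraries and carry no test. Junb followed Egr1 at r = 0.948, and Polq followed Jund at r = 0.985, 2 genes chosen after their values were seen; both sets share the libraries named above.

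Among 38 other immediate early genes, 32 were tested, 1 fell and none rose. Rhob, a small GTPase, measured 25.2, 21.4, 22.7 and 21.8 FPKM in control and 18.3, 18.7, 16.3 and 18.6 in valine, with no overlap (log2 difference -0.32, SE 0.0737, adjusted p = 0.0332). The call was lost, with the direction kept, in 11 of 21 alternatives, among them each fit that left out a sample. The list median was -0.09 against 0.02 over all tested genes, and 4.41% of all tested genes fell. Several others had negative differences that did not pass: Ccn2, a matrix-associated growth regulator, with -0.69 (adjusted p = 0.0528), Klf6 with -0.31 (0.0658), Dusp6 with -0.42 (0.0723) and Id1 with -0.68 (0.073). These 4 genes each passed as lower when totals were equalised, where 7 genes of the list were called lower, and with limma voom on recovered fragments, where 5 were. Zfp36l1, an RNA-decay factor, was highest in control 1 at 36.5 FPKM. Endothelial markers fell in 4 of 7 cases and peritubular myoid markers in 3 of 8, with sums of 30.8 to 36.9 against 18.1 to 19.7 FPKM and of 75.4 to 95.2 against 43.3 to 57.3 FPKM. Their part in the value of Rhob was not tested.

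**Figure D5:**
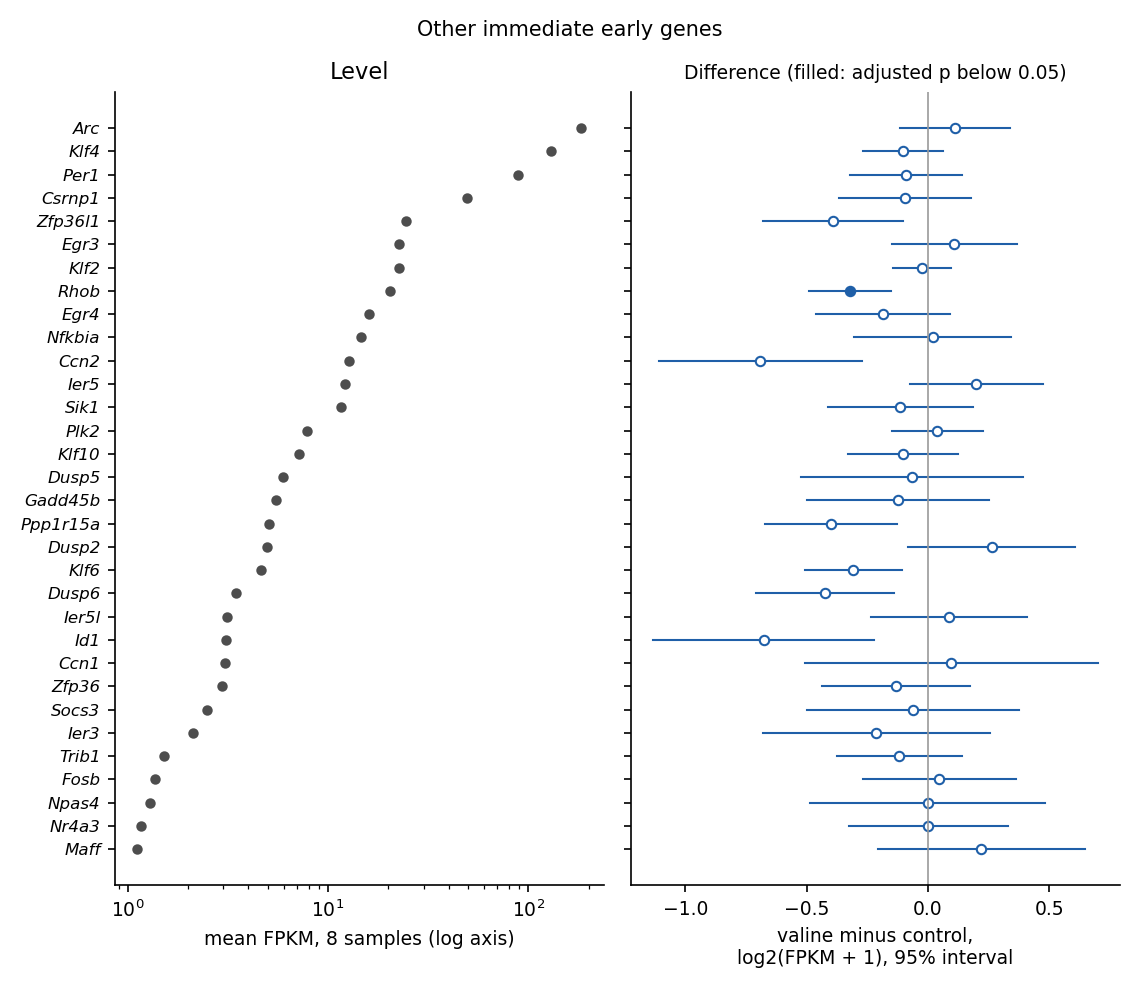
The 32 other immediate early genes tested, ordered by mean FPKM over 8 samples (left, log axis), with the difference of valine minus control in log2(FPKM + 1) and its 95% interval (right); filled points passed the threshold. Rhob alone is filled, to the left of 0.

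Highly expressed early genes did not pass. Arc, Klf4, Per1 and Csrnp1 had 176.5 ± 16.4, 133.9 ± 11.1, 91.5 ± 7.88 and 50.8 ± 5.90 FPKM in control and 191.3 ± 23.4, 124.3 ± 7.89, 86.3 ± 10.8 and 47.7 ± 7.26 in valine, all above Nr4a1 in level. Egr3 (21.6 ± 0.657 and 23.6 ± 3.78) and Egr4 (17.1 ± 2.36 and 14.9 ± 1.96), zinc finger relatives of Egr1, were each above the 2.48 FPKM of Egr1. Of 9 heat shock genes, which respond to stress and handling, none fell and 1 rose, where 4.32% of all tested genes rose. This was Hspb1, from 35.7 ± 5.21 to 49.3 ± 1.52 FPKM (adjusted p = 0.0229). No marker of blood (6 tested), lymphocytes (3) or epididymis (3), and none of 13 mitochondrial transcripts, passed in limma. Crisp1 was among the epididymis markers below the test limit. At an unadjusted p below 0.05 there were 0, 2, 0 and 4, against 5651 of the 22077 tested genes.

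Across the series, 1928 of the 22077 tested genes passed, 954 higher and 974 lower in valine. FPKM totals were 944659 to 974626 in control and 1027662 to 1070524 in valine, and recovered fragments numbered 16741533 to 19820671 per library. With totals made equal, 363 genes passed as higher and 2022 as lower, and the median log2 difference of all genes moved from 0.02 to -0.08. Macrophage markers fell in 5 of 9 cases, with sums of 108 to 130 FPKM in control and 47.8 to 63.7 in valine. Sertoli markers rose in 3 of 12 cases, and spermatocyte markers rose in 1 and fell in 1 of 11. Of 10 spermatogonial markers, 2 passed as lower, Zbtb16 and Kit, and 0 as higher. Only 3 of the 10 had negative differences, and the list median was 0.16. Their summed level was 202 to 224 FPKM in control and 225 to 241 in valine.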

How the data were processed

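Testis RNA of 4 control and 4 valine samples was extracted with Trizol and made into libraries with a TruSeq kit, per the labels' protocols. Alignment used HISAT2 on GRCm39, per the submitters' processing notes; versions, the counter, strandedness and annotation are not stated there, and overlapping and antisense genes cannot be told apart. The authors deposited FPKM values for 55414 genes, and 0 per-sample columns were unused. GENCODE vM21 and RefSeq tables named 52081 genes.

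Log2 values, log2(FPKM + 1), were computed from the FPKM the authors deposited. The 22077 genes averaging 1 FPKM or more were fitted with limma 3.58.1 in R 4.3.3, with group as the model's term and variances moderated along a trend; p-values were two-sided and adjusted by Benjamini-Hochberg, with a threshold of 0.05. FPKM is not a count, so no count model was the main test. Fragments were recovered from FPKM and vM21 exon length, giving 16741533 to 19820671 per library, which is 2.51 to 2.58 times (control) and 2.55 to 2.65 times (valine) the library total implied by the FPKM scale; what the authors divided by is not given in the sources used here. Intervals on fragments are exact Poisson at 95%, for counting error only. No 2 samples held identical values. The fit was tested on simulated data.

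The 10 genes and the 23 other lists were chosen with earlier results of these data known. Named genes were the 10, all 7 genes of steroid and Leydig hormone synthesis, up to 4 genes past the threshold of each list with the largest changes (where none passed, the 2 of lowest p), 7 further genes by name and the 5 closest to Nr4a1; others were chosen after their values were seen. Alternatives were a pseudocount of 0.1, no filter, a filter at 5 FPKM, 3 scalings, array weights, moderation without trend and robust, a length trend, the replicate block and leaving out each sample. Removal of a GC trend and limma voom on recovered fragments were added after the data were seen. The result of 1 gene of these lists is not reported here.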

Additional observations from a re-analysis of the deposited data

Results flagged for a closer look

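In 10 of 88 groups of 4 samples, taken from 44 genes, the highest or lowest sample lay far from the others (a gap over range above Dixon's 95% critical value, which chance passes in about 1 of 20 groups). Among the early genes these were Egr1 in control 1 at 5.957 FPKM, whose nearest neighbour was 2.049, Nr4a1 in control 2 at 27.18 FPKM (nearest 35.221), and Dusp1 in valine 3 at 7.541 FPKM (nearest 8.956). Valine 3 was also apart for Rhob at 16.335, Lhcgr at 0.344, Hsd3b6 at 12.543, Fosb at 1.01 and Klf6 at 4.339 FPKM, and was the lowest of its group in all of these except Klf6. In control, Hsd3b6 stood apart in control 4 at 28.602 FPKM and Insl3 in control 2 at 1188.18 FPKM. The part of any library property in these values was not tested.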

How the results depend on the processing

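No early gene passed in the alternatives run, except Btg2 without control 3. Across fits that left out a sample, 0 to 1 early genes, 0 to 1 other early genes as lower, 0 as higher, 379 to 794 genes as higher and 454 to 793 as lower passed, 3 to 5 early genes exceeded the median spread of their level class, and 6 to 7 genes differed from Nr4a1. Genes called higher numbered 568 with no filter, 363 with equal totals (2022 lower), 398 with quantile normalisation, 503 without the trend and 474 with the length trend removed, and voom on recovered fragments called 1566 lower. Other early genes called lower numbered 0 with no filter, 2 with a 5 FPKM filter, array weights or the length trend removed, 7 with equal totals and 5 with voom; for the difference in counts the cause was not tested.

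Signs turned in some alternatives, for differences near 0 and also for Jund (-0.18 in the main fit) and Egr1 (-0.15). Nr4a3 became -0.061 and Fosb -0.020 and Atf4 -0.0019 with equal totals, Nr4a1 became 0.0036 and Nr4a3 -0.015 with array weights, Nr4a1 0.0014 and Nr4a3 -0.0091 with the GC trend removed, and Nr4a3 -0.039 with voom. Over the fits that left out a sample, Nr4a1 ran from -0.11 to 0.024, Nr4a3 from -0.064 to 0.060, Junb from -0.18 to 0.10 and Egr1 from -0.30 to 0.19 (both highest without control 1), and Jund from -0.36 to 0.030 and Dusp1 from -0.13 to 0.0028 (both highest without control 4). With the replicate block, 581 genes passed as higher and 489 as lower; the labels' replicate numbers do not pair the samples (correlations of same-numbered samples' deviations were -0.0401 to 0.111, and controls 1 to 4 resembled valine 4, 4, 2 and 4 most). Few fragments limit Fos and Atf3.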
